A study of Caenorhabditis elegans with 2 samples.

Results

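The genes examined are those of the CDC-48 ATPase and its core cofactors in Caenorhabditis elegans. They are the paralogues cdc-48.1 and cdc-48.2, the adaptor gene ufd-1, and the adaptor paralogues npl-4.1 and npl-4.2. These 5 genes are 5 of the 19973 protein-coding genes on the nuclear chromosomes of the Ensembl annotation. They were chosen by name and by the signal values of their peaks, since cdc-48.1 was already known to hold the highest peak of the series. Their peaks are therefore described and not tested.

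The data are chromatin immunoprecipitation followed by sequencing of LIN-38, the nuclear product of a synMuv A gene of vulval development, in 2 biological replicates of 1 group. The animals were whole worms of strain RW12236, genotype st12236[lin-38::TY1::EGFP::3xFLAG], in which CRISPR had inserted EGFP with the epitope tags TY1 and 3xFLAG at the endogenous lin-38 gene. They had been synchronised as starved L1 larvae after bleaching and were collected at 48 hours as L4 larvae, and antibody against GFP recovered the tagged protein. All cells of the animal were pooled, so a peak does not say in which tissue it arose. Untagged animals and control libraries were not analysed here.

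CDC-48, called p97 or VCP in mammals, is a ring-shaped ATPase that pulls ubiquitinated proteins out of membranes, chromatin and complexes. UFD-1 and NPL-4 form the adaptor that binds ubiquitin chains and hands the substrate to the ring, mainly on the way to the proteasome. In the worm the 2 cdc-48 paralogues act redundantly, and CDC-48 with UFD-1 and NPL-4 is known for its part in DNA replication, in embryonic division and in degradation of misfolded proteins from the endoplasmic reticulum (ER).

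Each deposited peak has a signal value, the authors' score of its height. Its scaling is not stated, so it serves to rank and describe peaks of a list, and unequal values do not measure unequal occupancy. The score column is a scaled irreproducible discovery rate, and 830 was the lowest score in every thresholded list. The conservative list of the series (5405 nuclear peaks, median signal value 211) is the main one, and beside it stand the other thresholded list of the series (5551), the thresholded lists of replicate 1 (4429) and replicate 2 (4474), and the ranked lists, which hold 56082 to 57714 nuclear candidates each, most of them below the threshold. Signal values of the conservative list were close to the sum of the 2 replicate values, with a median ratio of 0.995. A lower value in each replicate than in the series is therefore no sign of a weaker peak. Read counts were not used here, and sequencing depth is unknown. A promoter peak is one with its summit in the window that starts 500 bp upstream and ends 200 bp downstream of any annotated 5′ end of the gene. Nearest 5′ ends are those of protein-coding genes throughout.

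The reference sequence at the summits shows what lies under the peaks of the ATPase genes. Each line is 300 bases of ce11 centred on a conservative summit, read in the direction of the gene. Capitals mark matches on either strand to TTTGAA (the core of the cell cycle homology region), TTCCCGC (an E2F site), TTCNNGAA (a shortened heat shock element), CACGTG (an E-box), GAGAGA (a purine repeat) or TATAAA (the box at some core promoters). The first is chrII:10563427-10563726 on the minus strand, between genes and upstream of cdc-48.1. The second is chrII:8138054-8138353 on the plus strand, upstream of cdc-48.2, and the third is chrII:8137533-8137832 on the plus strand, under the highest peak within 5 kb of cdc-48.2.
cdc-48.1 promoter: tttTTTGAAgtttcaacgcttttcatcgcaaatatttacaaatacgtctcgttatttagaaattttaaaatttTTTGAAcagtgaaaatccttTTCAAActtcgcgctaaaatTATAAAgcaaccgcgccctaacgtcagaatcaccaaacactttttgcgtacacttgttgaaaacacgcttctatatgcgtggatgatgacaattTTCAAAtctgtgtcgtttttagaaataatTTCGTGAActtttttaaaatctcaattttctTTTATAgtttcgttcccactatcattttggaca
cdc-48.2 promoter: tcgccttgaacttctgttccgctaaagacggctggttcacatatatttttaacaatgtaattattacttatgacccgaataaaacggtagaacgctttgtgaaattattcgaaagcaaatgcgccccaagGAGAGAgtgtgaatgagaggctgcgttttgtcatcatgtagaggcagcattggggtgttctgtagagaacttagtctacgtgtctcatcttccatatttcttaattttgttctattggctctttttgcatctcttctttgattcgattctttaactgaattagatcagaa
cdc-48.2, 813 bp upstream: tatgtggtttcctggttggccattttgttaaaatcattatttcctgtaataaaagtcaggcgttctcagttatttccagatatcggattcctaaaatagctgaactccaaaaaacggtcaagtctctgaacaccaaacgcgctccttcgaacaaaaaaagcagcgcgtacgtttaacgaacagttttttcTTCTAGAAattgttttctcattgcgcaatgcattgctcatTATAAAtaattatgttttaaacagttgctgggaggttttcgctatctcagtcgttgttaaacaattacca

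TTTGAA, which LIN-54 binds in the worm, matched 4 times in the cdc-48.1 window and was in neither cdc-48.2 window. Only this exact sequence was searched. TTCGAA, which differs from it by 1 base, was not searched or counted at other summits. It can be read in both cdc-48.2 windows above and not in the cdc-48.1 window. No difference in LIN-54 sites between the paralogues is read from the TTTGAA counts. Of the 5405 windows of the same length at conservative summits, 55.8% held at least 1 match to TTTGAA and 2.00% held 4 or more. At gene starts the share of windows of this length with TTTGAA was higher, 62.5%. The share with 4 or more was not computed there, and the counts were not adjusted for base composition. The cdc-48.1 window also held TTCNNGAA once and TATAAA in 2 places. Of all summit windows, 17.8% held the first of these and 29.6% the second. The cdc-48.2 promoter window held GAGAGA once, as did 29.0% of the summit windows. The window 813 bp upstream of cdc-48.2 held TTCNNGAA and TATAAA once each. The E2F pattern TTCCCGC, in 6.94% of summit windows, and the E-box CACGTG, in 6.44%, matched in none of the 3 windows. Matches did not overlap. G and C made up 31.3% of the cdc-48.1 window, 38.3% of the cdc-48.2 promoter window and 36.7% of the other, against a median of 37.7% at all summits.

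The conservative list gave a promoter peak to 2 of the 5 genes, both of them the ATPase genes. The share among all protein-coding genes was 14.6%. In the other thresholded list the count was 3 of 5 (14.7% of all genes), and it was 3 of 5 in replicate 1's list (13.2%) and in replicate 2's list (13.1%). The third gene was ufd-1 in each case, and npl-4.1 and npl-4.2 had no promoter peak in any of the 4 thresholded lists. A peak anywhere within 5 kb of a 5′ end was present at 2 of 5 genes, and at 36.5% of all genes. Since the peaks helped to choose the genes, nothing is read from these shares.

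**Figure D1:**
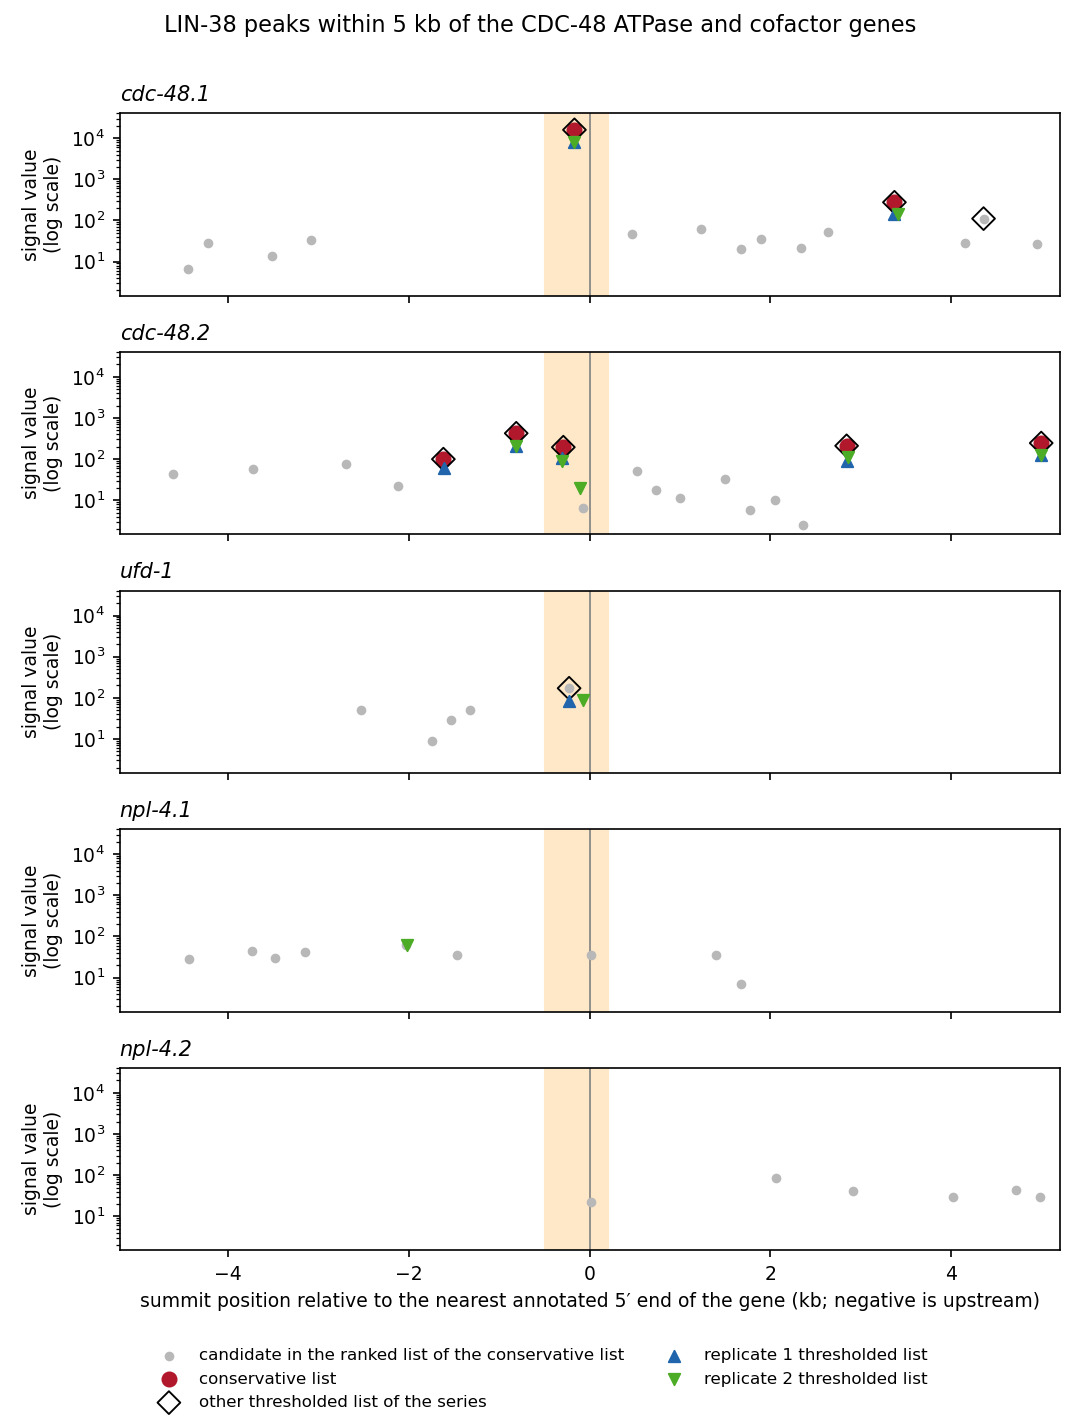
Signal value (log scale) of every peak within 5 kb of the 5 genes against the distance of its summit from the nearest 5′ end of the gene, in kb. Shading marks the promoter window, and symbols mark the list a peak is in. The cdc-48.1 promoter peak stands at 15912 in the series' lists and at 8076 and 7890 in the replicates' lists, and no thresholded peak elsewhere in the plot is above 425.

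The gene cdc-48.1 (WBGene00007352, chrII:10560036-10563407, minus strand) encodes 1 of the 2 copies of the ATPase. Its promoter peak covered chrII:10563319-10563811 with the summit at 10563576, which is 169 bp upstream of the 5′ end and between genes. Its signal value was 15912 in the conservative list, 8076 in replicate 1 and 7890 in replicate 2. The peak ranked 1 in each of the 8 lists. Both replicates were high at it, and their log2 ratio was 0.03, where 5342 conservative peaks, those with both values, had a median of 0.04 and an SD of 0.40. The summit was 179 bp upstream in replicate 1 and 169 bp upstream in replicate 2.

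The first rank was held by a small margin. The signal value was 1.06 times that of the second peak in the series (14968), which lay nearest to Y17G9B.5, and the ratio was 1.06 in replicate 1 and 1.07 in replicate 2. Against the median of the conservative list it was 75.4 times as high. The peak was 493 bp wide, and 4.81% of conservative peaks were at least as wide. No other candidate, even below the threshold, lay in the promoter window of cdc-48.1 in any ranked list.

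A second, far lower conservative peak lay at the other end of cdc-48.1. It covered chrII:10559909-10560147, and its summit at 10560036 was the last annotated base of the gene, in its 3′ untranslated region. Its signal value was 277 in the conservative list, 145 in replicate 1 and 143 in replicate 2, and its rank was 2123. The replicates put the summit on both sides of the gene's end, 3365 bp from the 5′ end in replicate 1 and 3415 bp in replicate 2. Near the 5 kb limit, the other thresholded list had 1 more peak, 4357 bp downstream of the cdc-48.1 5′ end, with a signal value of 111. It was in neither replicate's thresholded list (44.2 in replicate 1 and 82.4 in replicate 2), and the nearest 5′ end of a protein-coding gene was that of the protein kinase gene mnk-1, 4006 bp away. The next conservative peak, outside the limit, was 6420 bp from the 5′ end (100.6).

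The gene cdc-48.2 (WBGene00008053, chrII:8138496-8141230, plus strand) encodes the other copy of the ATPase. Its promoter peak, chrII:8138016-8138391, had its summit 292 bp upstream, between genes. The signal value was 195 in the conservative list, 107 in replicate 1 and 87.7 in replicate 2. It was below the median of the list, at rank 2895 of 5405, and both replicates had it in their thresholded lists. Their log2 ratio was 0.29, which is less than the SD of all peaks. In replicate 2 alone a further peak of the thresholded list lay 103 bp upstream, with a score of 1000 and a signal value of 19.8, rank 4362 of 4474.

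Around cdc-48.2 the conservative list had 5 peaks within 5 kb, a count that 2.25% of all genes reached or passed. Their signal values ran from 99.9 to 425. The highest was not in the promoter window of cdc-48.2. It lay 813 bp upstream, chrII:8137555-8137787, and its signal value was 425, with 208 in replicate 1 and 210 in replicate 2. The nearest 5′ end to it, 765 bp away, was that of ctns-1, the lysosomal cystine transporter gene, which runs in the opposite direction.

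The other 3 peaks lay in or beside neighbouring genes. One, 1619 bp upstream, was 39 bp inside ctns-1 and in its coding sequence; its signal value was 99.9, with 60.3 in replicate 1 and 50.02 in replicate 2, where the score of 552 was below the threshold. Another, 2842 bp downstream, was in the coding sequence of ints-11, which encodes the endonuclease of the Integrator complex and overlaps the 3′ end of cdc-48.2 by 22 bp. Its signal value was 211, with 90.0 in replicate 1 and 112 in replicate 2. The last was just inside the limit, 4995 bp from the 5′ end of cdc-48.2 but 13 bp upstream of ints-11, and it was also in the promoter window of the ribosomal protein gene rpl-10. Its signal value was 246, with 124 in replicate 1 and 123 in replicate 2. The nearest conservative peak outside the limit was 6274 bp away (206), at F10B5.2.

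The ATPase paralogues are close in coding sequence. Their coding sequences were identical at 75.5% of aligned bases and 88.1% of aligned residues (809 and 810 codons). The promoter signal value of cdc-48.1 was 81.5 times that of cdc-48.2 in the conservative list, 75.4 times in replicate 1 and 90.0 times in replicate 2, which on the log2 scale is a difference of 6.35, 6.24 and 6.49. Set against the highest peak within 5 kb of cdc-48.2, at 425, the difference was 5.23, or 37.5 times. The pair was chosen for this difference, so no test was made. In both promoter windows no stretch of 32 bases occurred a second time in the nuclear genome (0 of 670 such words at either gene).

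**Figure D2:**
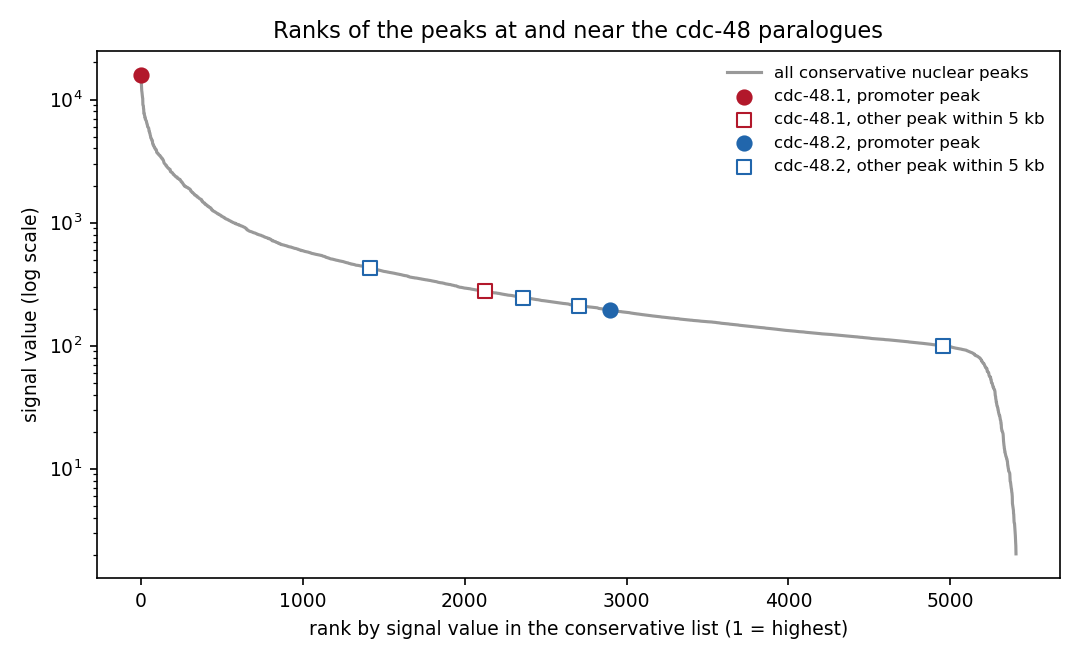
Signal value (log scale) against rank for all 5405 nuclear peaks of the conservative list (line), with the peaks within 5 kb of cdc-48.1 and cdc-48.2 marked. The promoter peak of cdc-48.1 is at rank 1, and all 5 peaks of cdc-48.2 lie between ranks 1416 and 4952.

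The adaptor gene ufd-1 (WBGene00006733, chrIV:12329408-12330890, minus strand) was at the edge of the threshold. It had no conservative peak within 5 kb, and the nearest lay 35709 bp away. In the other thresholded list its promoter peak, chrIV:12330930-12331305, had its summit 228 bp upstream, in the 3′ untranslated region of the upstream gene F19B6.1, and a signal value of 171. The same interval is in the ranked list of the conservative list with a score of 446, under the threshold. Replicate 1's thresholded list had the peak at 226 bp upstream with a signal value of 82.7. Replicate 2's had it at 75 bp upstream, between the genes, with 87.9. The values were close, and the summits lay on opposite sides of the border of F19B6.1.

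Replicate 2's ranked list held a second, lower candidate there, 274 bp upstream, with a signal value of 43.9 and a score of 185. Paired by nearest summit, replicate 1 exceeded replicate 2 by a log2 ratio of 0.91, and paired with the higher peak the ratio was -0.09. The stretch between ufd-1 and F19B6.1, chrIV:12330891-12330975, is 85 bases long and holds the summit of replicate 2. It is shown on the minus strand because the replicates' summits lie on both sides of its upstream border, and capitals mark its match to TTTGAA. The 300 bp window at the gene start of ufd-1 held TTTGAA once, as 62.5% of such windows held it, and CACGTG once (5.82%). The gene start windows of npl-4.1 and npl-4.2, which had no promoter peak, also held TTTGAA once each. That of cdc-48.1 held 3 matches to it and that of cdc-48.2 held 0. The 300 bp window at the ufd-1 summit of the other thresholded list held CACGTG once, as did 6.44% of summit windows, and no TTTGAA.
ufd-1 upstream: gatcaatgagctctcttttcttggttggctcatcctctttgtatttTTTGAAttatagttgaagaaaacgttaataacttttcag

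**Figure D3:**
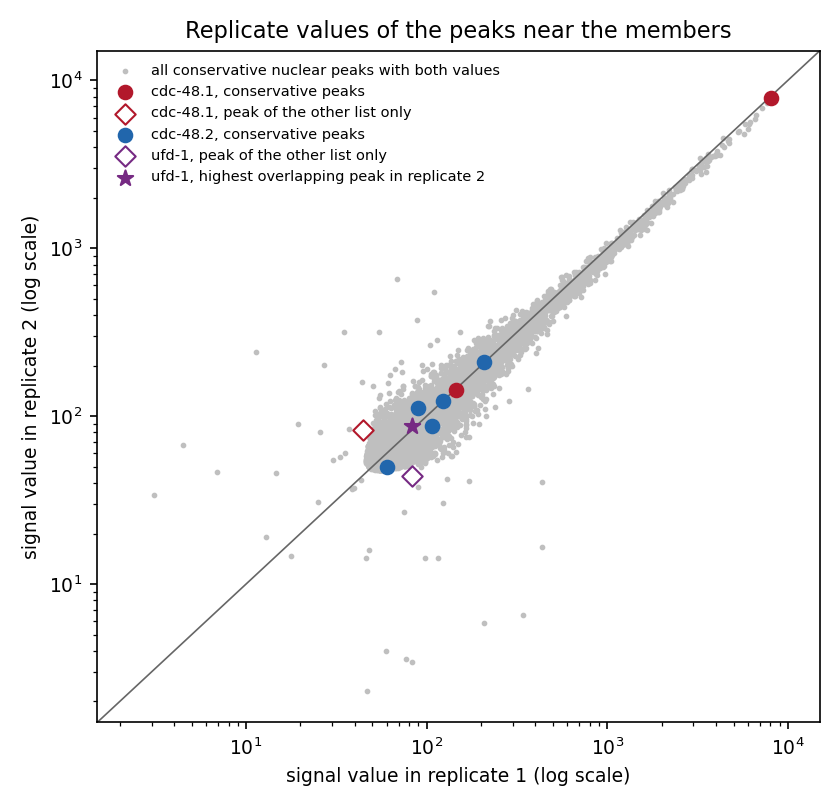
Signal value in replicate 1 against replicate 2 (both log scales) for conservative peaks that have both values, with the line of equal values. The conservative peaks of cdc-48.1 and cdc-48.2 lie along the line. Open diamonds mark peaks of the other thresholded list only. That of cdc-48.1 lies off the line, with 44.2 in replicate 1 and 82.4 in replicate 2. The gene ufd-1 is shown with the nearest candidate of replicate 2 (43.9) and with the higher one (87.9).

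The adaptor genes npl-4.1 (WBGene00019120, chrII:5631351-5633284, plus strand) and npl-4.2 (WBGene00019121, chrII:5622889-5624959, plus strand) encode the partner of UFD-1. Neither had a conservative peak within 5 kb, and the nearest were 18286 and 23144 bp away. The only thresholded peak within that distance was in replicate 2's list, 2017 bp upstream of npl-4.1 and in the 5′ untranslated region of F59E12.6, with a signal value of 60.9 and a score of 875. In the ranked list of the conservative list the same place had 63.5 and a score of 84. In the ranked list of the conservative list both had a low candidate in the promoter window, as did 34.8% of all genes. At npl-4.1 the candidate had 36.0 in that list and in the ranked list of the other thresholded list, 17.3 in replicate 1 and 18.8 in replicate 2. At npl-4.2 it had 22.0 in that list and 9.86 in replicate 2, and neither replicate 1's ranked list nor that of the other thresholded list had a candidate there.

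These 2 genes are close copies, and reads from either can match both. Their gene starts are 8462 bp apart, and their coding sequences are identical at 99.5% of bases and 99.1% of residues (529 codons each). Upstream of the gene start 1325 bases in a row are the same, the first difference within the gene is at its base 15, and the next is at base 1391. Of the 670 words of 32 bases in the promoter window, 638 (95.2%) occur at a second place in the nuclear genome, at npl-4.1 and npl-4.2 alike; the count was 0 at cdc-48.1, cdc-48.2 and ufd-1. The first 30 coding bases, chrII:5631359-5631388 and chrII:5622897-5622926 on the plus strand, hold the first of those differences, C7A, counted from the start codon with npl-4.1 first and shown in capitals.
npl-4.1 coding start: atggtaCttgaagtccctcaaactgagcgt
npl-4.2 coding start: atggtaAttgaagtccctcaaactgagcgt

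In 1 chosen stretch, the candidates at the npl-4 genes lay close to the bases that tell the copies apart. From 1325 bp upstream to base 1541 of either gene, the 4 ranked lists together held 11 candidate summits, and all 11 were 3 to 26 bp from base 15 or base 1391. These are overlapping lists of the same samples, so the 11 are not independent. The end at base 1541 was a choice, so the closeness describes this stretch only and nothing is read from it. Other candidates inside npl-4.1 lay past that end. They were 1673 bp downstream of its 5′ end in the ranked list of the conservative list (7.18) and 1640 bp downstream in replicate 2 (10.8). How reads that match both copies were treated is not given in the sources used here, and the part of this in the low values at npl-4.1 and npl-4.2 was not tested. Beyond the copied stretch, the highest candidate at npl-4.2 lay 2065 bp downstream of its 5′ end, with 83.3 in the ranked list of the conservative list, 33.3 in replicate 1 and 57.4 in replicate 2, all under the threshold.

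In order of promoter signal value in the ranked list of the conservative list, the genes stood as cdc-48.1 (15912), cdc-48.2 (195), ufd-1 (171), npl-4.1 (36.0) and npl-4.2 (22.0). The replicate values of cdc-48.2 were 107 and 87.7, and those of ufd-1, paired by nearest summit, were 82.7 and 43.9, which did not overlap them. With the higher of the 2 ufd-1 peaks in replicate 2 (87.9), a pairing chosen after seeing the data, they overlapped. The order in the ranked list used no pairing, while the order within replicate 2 rests on it. Paired by nearest summit, the series value of ufd-1 was 1.35 times the sum of its replicate values. The median of this ratio over conservative peaks was 0.995. By the distance of log2 signal values over the 2 samples, with about 2330 other genes compared, the genes closest in level to cdc-48.1 were Y17G9B.5 (distance 0.13) and the ribosomal protein gene rpl-7A (0.27). The closest to cdc-48.2 were F21C10.10 (0.019) and mex-3 (0.033), and to ufd-1 kel-20 (0.017) and cec-6 (0.032). For ufd-1 this used the higher peak in replicate 2 (87.9). The closest genes with the nearest-summit value of 43.9 were not computed. With 2 samples this is closeness of level only.

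Other genes of the pathway were taken from lists of named genes. Among other CDC-48 cofactors and partners 5 of 11 had a promoter peak in the conservative list, beside 14.6% of all genes, with a median signal value of 450 against 336 over all genes with one. The lists were chosen with earlier results known, and the counts are a description. The highest was at ufd-2, the ubiquitin chain elongation factor gene, with 2186 (1097 in replicate 1 and 1059 in replicate 2). It was followed by the UBX-domain cofactor gene ubxn-2 with 700 (366 and 346) and by ufd-3, whose product binds ubiquitin and CDC-48, with 450 (231 and 204). The UBX-domain genes ubxn-1 and ubxn-3 had 263 (154 and 114.9) and 173 (86.0 and 89.7). The ubxn-1 summit was also in the promoter window of tipn-1. All 5 genes had a promoter peak in both replicates' thresholded lists, and the 6 without one there were ubxn-4, ubxn-5, ubxn-6, atx-3, png-1 and chn-1.

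Of 8 genes of ER-associated degradation, the route for which UFD-1 and NPL-4 are best known, 3 had a promoter peak, beside 14.6% of all genes, with a median of 552 against 336 over all genes with one. These were the ubiquitin-conjugating enzyme genes ubc-6 (1972, with 1013 and 972 in replicates 1 and 2) and ubc-7 (552, with 247 and 302), and the ubiquitin ligase gene sel-11 (113, with 51.9 and 64.7). The ubc-6 summit was also in the promoter window of aka-1, and sel-11 had no promoter peak in replicate 1's thresholded list. The genes sel-1, hrdl-1, marc-6, cup-2 and der-2 had none.

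Among 12 other AAA ATPase genes 7 had a promoter peak, again beside 14.6% of all genes, with a median of 1106 against 336. The vesicle fusion ATPase gene nsf-1 was highest (2382, with 1240 and 1158 in the replicates). Of the mitochondrial ATPases, atad-3 had 1960 (994 and 987), and the protease genes spg-7 and ymel-1 had 1224 (668 and 547) and 1106 (613 and 492). The respiratory chain assembly gene bcs-1, also mitochondrial, had 200 (86.7 and 107), and no promoter peak in replicate 2's thresholded list. The membrane scission ATPase gene vps-4 had 664 (327 and 338) and the fidgetin-like gene figl-1 had 178 (90.3 and 86.3). The genes mac-1, prx-1, prx-6, spas-1 and mei-1 had none. The cdc-48.2 value of 195 was below the median of each of the 3 lists; cdc-48.1 was chosen for the highest peak of all and is not set against them.

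**Figure D4:**
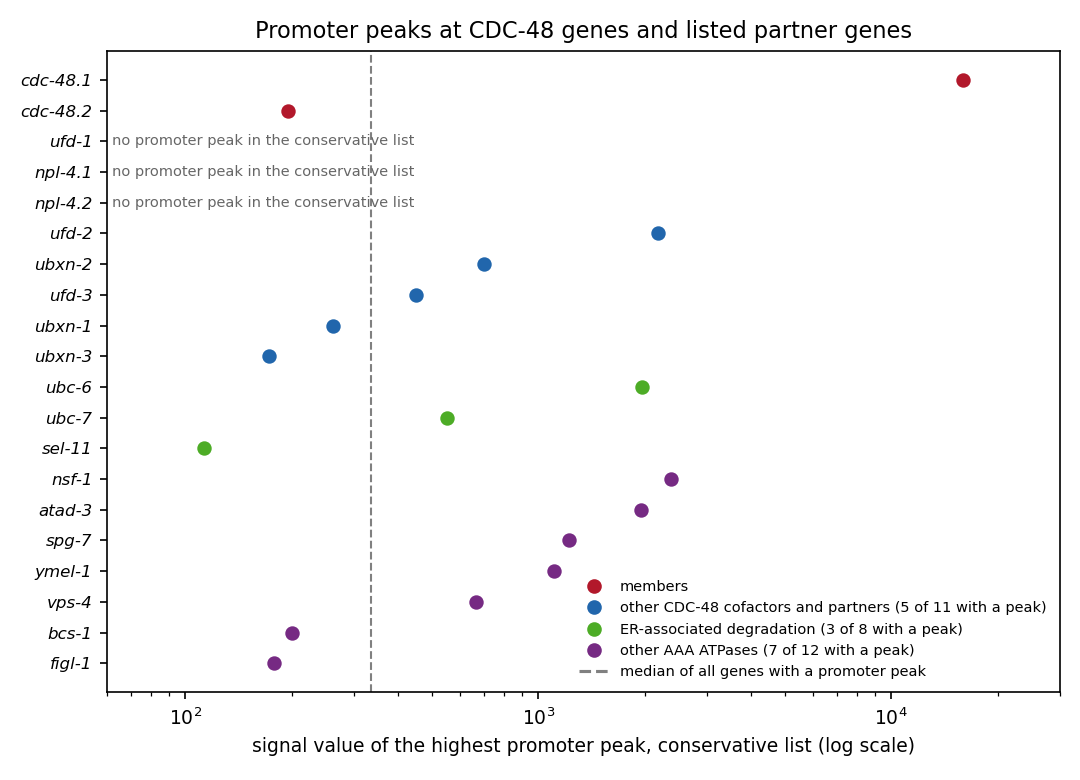
Signal value (log scale) of the highest promoter peak in the conservative list for the 5 genes and for the listed genes that have one; the dashed line is the median of all genes with a promoter peak, 336. The point of cdc-48.1, chosen for the highest peak, is at 15912, and ufd-1, npl-4.1 and npl-4.2 have no peak in this list.

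The counts depend on where the promoter ends. From 200 bp upstream to 100 bp downstream, 1 of the 5 genes had a conservative peak, cdc-48.1 (8.04% of all genes), since the cdc-48.2 summit is 292 bp upstream. From 1000 bp upstream to 500 bp downstream 2 had one (18.0% of all genes).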

How the data were processed

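Peaks were read from 8 lists deposited by the authors on the ce11 assembly. Per the labels, each of the 2 samples has a ranked and a thresholded list of its own, and 4 lists are of the whole series (2 ranked, 1 thresholded and 1 conservative). Which aligner and caller were used is not given in the sources used here. The authors' signal value is in an unstated scale. The deposited score is a scaled irreproducible discovery rate, and the deposited −log10 q values were used for no result. The 16 per-input columns of the series' ranked lists were not used. A replicate's value is that of the overlapping peak (at least 1 bp) with the nearest summit in its ranked list. In the search for genes closest in level, cdc-48.1, cdc-48.2 and ufd-1 instead took their highest promoter peak in each replicate's thresholded list. The deposited lists hold no read counts, so no depth, interval or count test can be given.

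Summits were set against 29304 distinct 5′ ends of protein-coding genes of Ensembl release 115 (WBcel235, the same assembly), and sequences come from its RefSeq copy. Peaks on mitochondrial DNA were left out. Patterns were searched on both strands in 300 bp windows. Paralogues were aligned globally with Biopython 1.88, and Python 3.11.15, numpy 2.4.6, pandas 2.3.3 and matplotlib 3.10.9 were used. The assignment of summits to genes was checked on simulated peaks.

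The genes, lists, patterns and tests were chosen with earlier results of these data known. Besides the 5 genes, the text names genes nearest to thresholded peaks within 5 kb of them, listed genes with a promoter peak, and the 2 genes closest in replicate values to each gene with a promoter peak in both replicates. Listed genes without a peak, and genes nearest to the peaks just outside 5 kb or that hold a summit, were named after their values were seen. With 1 group of 2 replicates there is no comparison between groups and no test.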

Additional observations from a re-analysis of the deposited data

How the results depend on the processing

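Of 55 values recomputed under another setting, 45 kept within 1.5 times the count or within the spread between replicates, and 10 moved. Some of the 45 say little. The conservative and other thresholded lists hold the same signal values at both cdc-48 promoter peaks. A change from 2 to 3 of the 5 genes also counted as kept. A promoter from 200 bp upstream to 100 bp downstream left 1 of the 5 genes with a peak, and 3, 1 and 3 genes of the lists of cofactors, ER-associated degradation and other AAA ATPases, against 5, 3 and 7. Keeping only the conservative peaks above the median signal value also left 1 of the 5. The share of all genes was not computed for that setting, so nothing is read from the count. Taking 1 replicate's list alone gave 3 genes with a promoter peak in either case. It gave 3 to 4 genes with a peak within 5 kb, where npl-4.1 was the gene added by replicate 2's list. The share of all genes with a peak within 5 kb was computed for the conservative list only (36.5%). The paralogues' log2 difference was 6.24 to 6.49 in single replicates and 5.23 against the highest peak within 5 kb of cdc-48.2, a setting chosen after seeing the data, as were the other thresholded list for the count within 5 kb (3 genes) and the highest overlapping replicate peak, which put ufd-1 at 87.9 instead of 43.9 in replicate 2. The nearest summit moved to -179 bp at cdc-48.1 in replicate 1 and to -103 bp at cdc-48.2 in replicate 2. No paired analysis was possible because there is 1 group, and no result comes from a test.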
